A study of Mus musculus with 4 samples.

Results

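Gene desert peaks are ChIP-seq peaks that lie far from any gene. Here they are the autosomal peaks (chromosomes 1 to 19) whose authors' annotation was intergenic throughout and whose nearest gene start (transcription start site, TSS) was more than 100 kb away. The wild-type (WT) list held 645 such peaks of 5288 autosomal and 5526 total peaks, and the Elf1 knockout (KO) list held 557 of 5117 autosomal and 5559 total peaks. The 2 lists together held 1202 desert peaks of 11085. Membership rests on position alone, so peak height and sequence played no part in the choice.

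The peaks come from chromatin immunoprecipitation (IP) with an antibody to the transcription factor ELF1 in bone-marrow-derived macrophages, cultured phagocytes that the labels give as M1. Cells of both genotypes, WT and Elf1 KO, had received lipopolysaccharide (LPS), the bacterial cell wall component sensed by TLR4, for 6 h. Each genotype gave 1 IP library and 1 input library, 4 samples in all, and peaks were called in each IP library. The labels give no sex, age, strain, knockout allele or number of mice, and peak lists measure neither ELF1 protein nor macrophage markers, so genotype and cell type rest on the labels. With 1 library per genotype, no difference between WT and KO has a replicate check or a p-value. Intervals in parentheses are exact 95% intervals (Clopper-Pearson for shares, Poisson for densities, order statistics for medians) and cover counting error only.

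ELF1 belongs to the ETS family, whose members read a GGAA core, and ELF factors prefer the longer site CCGGAAGT, typical of promoters of broadly expressed genes. Gene deserts are long stretches without genes, rich in A and T, and many flank genes for cell adhesion, nerve cell wiring or development. Some deserts hold enhancers that act over long distances. In macrophages, such distal enhancers are known to be opened by the ETS factor PU.1 together with AP-1 and other partners. By their label the KO cells lack ELF1, and their peaks are given beside the WT ones throughout.

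Of the 1202 desert peaks, the sequences that carry the main observations are shown here from the RefSeq GRCm38.p6 reference, on the plus strand. Capitals mark each GGAA or TTCC (the ETS core on either strand) and the ELF-type site. The desert peak with the full ELF-type site, read as ACTTCCGG on the plus strand, lay between the cadherin genes Cdh8 and Cdh11 in the WT list, and chr8:101167183-101167358 is the part of it within 100 bp of its summit. The next 3 are stretches covered by both a WT and a KO peak: chr8:49694930-49695127 between Tenm3 and Aga, which is free of masked repeats, chr6:20514488-20514597 between Ankrd7 and Kcnd2, and chr12:42539788-42539975 between Immp2l and Dnajb9, which is repeat-masked throughout. The last 2 are the 201 bp around the summits of a WT peak between Zeb2 and Acvr2a (chr2:46949628-46949828) and of a KO peak between Chl1 and Cntn6 (chr6:104066466-104066666), which had the highest fold enrichment of the WT desert peaks that are not fully masked and of all KO desert peaks.
ELF-type site, Cdh8 to Cdh11: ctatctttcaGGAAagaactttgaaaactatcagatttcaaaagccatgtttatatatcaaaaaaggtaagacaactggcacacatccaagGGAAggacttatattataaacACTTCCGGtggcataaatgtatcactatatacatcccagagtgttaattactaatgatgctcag
Shared, Tenm3 to Aga: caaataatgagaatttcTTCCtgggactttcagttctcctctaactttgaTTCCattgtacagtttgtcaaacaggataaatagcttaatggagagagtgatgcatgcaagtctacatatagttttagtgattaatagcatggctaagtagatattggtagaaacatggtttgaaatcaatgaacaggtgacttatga
Shared, Ankrd7 to Kcnd2: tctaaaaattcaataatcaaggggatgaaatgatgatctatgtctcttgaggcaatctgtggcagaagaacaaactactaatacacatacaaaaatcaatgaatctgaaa
Shared, Immp2l to Dnajb9: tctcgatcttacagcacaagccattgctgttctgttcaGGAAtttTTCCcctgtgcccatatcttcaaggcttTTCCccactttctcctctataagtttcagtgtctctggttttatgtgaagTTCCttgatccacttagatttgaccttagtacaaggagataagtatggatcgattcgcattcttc
WT, Zeb2 to Acvr2a: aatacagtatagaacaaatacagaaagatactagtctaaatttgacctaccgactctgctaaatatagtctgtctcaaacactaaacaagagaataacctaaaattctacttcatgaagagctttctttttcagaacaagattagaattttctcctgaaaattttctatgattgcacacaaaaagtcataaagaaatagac
KO, Chl1 to Cntn6: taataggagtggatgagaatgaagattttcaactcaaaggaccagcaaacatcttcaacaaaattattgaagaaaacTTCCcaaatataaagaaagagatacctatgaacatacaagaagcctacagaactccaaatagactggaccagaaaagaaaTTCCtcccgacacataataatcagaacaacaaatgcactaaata

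Desert peaks made up 12.2% of the WT autosomal list (11.3 to 13.1) and 10.9% of the KO list (10.0 to 11.8). Among intergenic peaks alone they were 21.5% in WT (20.0 to 23.0) and 18.9% in KO (17.5 to 20.4). The WT desert peaks lay a median of 158 kb from the nearest gene start (152 to 167), and the KO ones 146 kb (142 to 152). In WT, 289 lay between 100 and 150 kb, 152 between 150 and 200 kb, 128 between 200 and 300 kb, 66 between 300 and 500 kb and 10 beyond 500 kb. In KO the same classes held 295, 109, 97, 45 and 11 peaks. These medians and classes use the authors' distances. By GENCODE M21, an annotation used below, only 3 intergenic WT peaks and 1 KO peak lay beyond 500 kb. At the limit itself, the closest WT desert peak was 100058 bp from a gene start and the farthest intergenic WT peak left out was 99874 bp away, and the KO values were 100044 and 99998 bp. Between 100 and 110 kb there were 75 WT and 71 KO desert peaks, and between 90 and 100 kb 85 WT and 71 KO intergenic peaks that were not taken.

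To compare deserts with other sequence, the desert was measured in the GENCODE M21 annotation of the same build as all autosomal bases outside gene bodies and more than 100 kb from every gene start. It came to 171.9 Mb, or 7.175% of the assembled autosomes. The M21 desert held 592 of the 645 WT desert peaks and 480 of the 557 KO ones, and no other peak of either list. Each Mb of it carried 3.44 WT peaks (3.17 to 3.73) and 2.79 KO peaks (2.55 to 3.05). Each Mb of the remaining autosomes carried 2.11 WT peaks (2.05 to 2.17) and 2.09 KO peaks (2.03 to 2.15). Desert sequence was thus denser in peaks than the rest in both libraries, 1.63 times in WT and 1.34 times in KO, and the WT and KO counting intervals were apart in the desert and overlapped in the rest as a whole. That separation depended on how the desert was drawn. In the 749.9 Mb more than 100 kb from protein-coding genes alone, the density was 2.93 peaks per Mb in the WT list (2.81 to 3.06) and 2.73 in the KO list (2.61 to 2.85), with overlapping intervals.

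In both lists, intergenic peak density was higher in the deserts than close to gene starts. In intergenic sequence within 10 kb of an M21 gene start, WT had 1.87 peaks per Mb (1.72 to 2.02) and KO 1.98 (1.83 to 2.13). At 50 to 100 kb the densities were 2.73 in WT (2.51 to 2.96) and 2.55 in KO (2.34 to 2.78). At 100 to 200 kb WT had 3.34 peaks per Mb (3.03 to 3.68) and KO 2.84 (2.56 to 3.15). At 200 to 500 kb WT had 3.72 (3.17 to 4.34) and KO 2.67 (2.20 to 3.20). The WT and KO intervals overlapped in each of these bands, and within each list the intervals of the last 2 bands overlapped. Beyond 500 kb only 0.723 Mb of sequence remained, with 3 WT peaks and 1 KO peak.

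**Figure D1:**
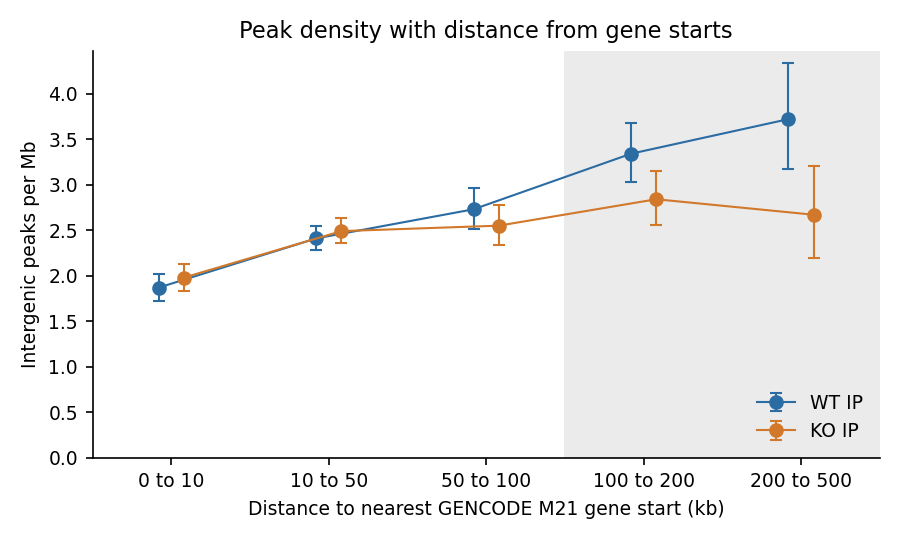
Intergenic peaks per Mb (vertical axis) by distance to the nearest GENCODE M21 gene start in kb (horizontal axis) for the WT and KO IP lists, with exact 95% Poisson intervals as bars and the desert shaded. WT rises from 1.87 to 3.72 peaks per Mb, and KO runs from 1.98 to 2.84 and 2.67, with WT and KO intervals overlapping in each band.

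WT desert peaks were richer in A and T than KO ones. WT desert peaks had a median GC content of 35.4% (35.0 to 36.0) and KO desert peaks 37.5% (36.8 to 38.0), against 38.3% in desert windows of 201 bp. The same offset ran through both libraries away from deserts: intergenic peaks within 100 kb of a gene start had a median GC of 37.1% in WT and 39.0% in KO, and all other autosomal peaks 37.4% in WT and 39.2% in KO. In desert sequence under 33% GC, WT had 5.86 peaks per Mb (5.12 to 6.68) and KO 2.89 (2.38 to 3.48). Between 37% and 41% GC each list had 3.53 peaks per Mb (2.95 to 4.19). At 41% GC and over, the order was the other way, with 1.52 in WT (1.23 to 1.87) and 2.25 in KO (1.89 to 2.65). WT and KO were apart in the same directions outside the deserts, at 4.50 (4.16 to 4.86) against 2.97 (2.70 to 3.26) in intergenic sequence within 100 kb under 33% GC and at 1.20 (1.11 to 1.30) against 1.65 (1.55 to 1.77) at 41% and over. The GC difference was therefore not particular to deserts, and the part of GC in the desert difference was not tested beyond these strata.

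At matched GC content, WT deserts were still denser than intergenic sequence nearer to genes in the lowest class, at 5.86 against 4.50 peaks per Mb (4.16 to 4.86). In the 37% to 41% class the desert value of 3.53 had an interval (2.95 to 4.19) that touched the nearer one of 2.72 (2.50 to 2.96). In the other 2 classes the WT intervals overlapped. In KO the desert and nearer densities overlapped in the 3 lower classes (2.89 against 2.97 under 33% GC) and differed at 41% GC and over, where the desert had 2.25 (1.89 to 2.65) and nearer sequence 1.65 (1.55 to 1.77).

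**Figure D2:**
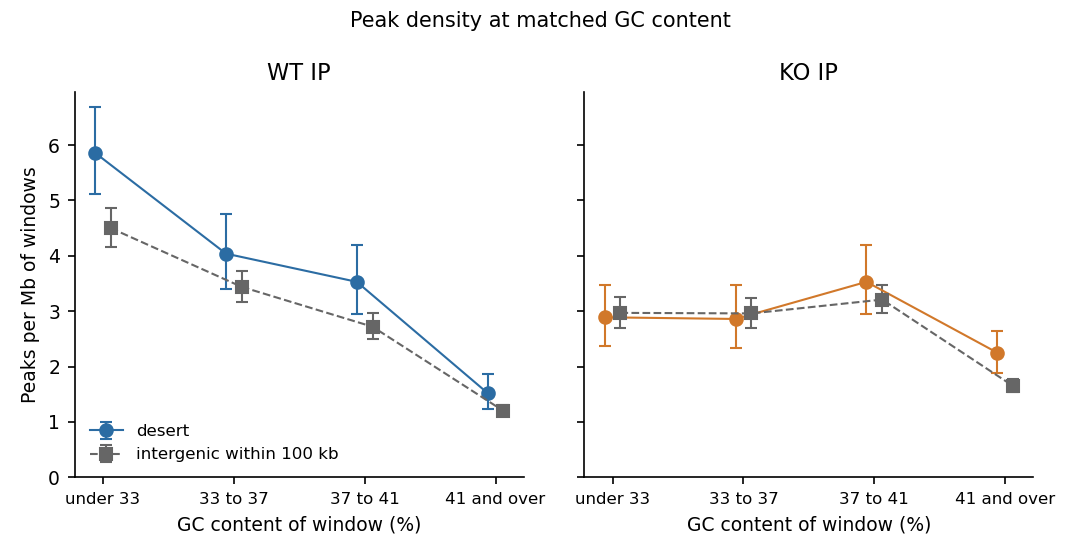
Peaks per Mb of 201-bp windows (vertical axis) by GC content of the window in percent (horizontal axis), for desert sequence and for intergenic sequence within 100 kb of a gene start, in the WT (left) and KO (right) IP lists, with exact 95% Poisson intervals as bars. WT desert density falls from 5.86 to 1.52 peaks per Mb with rising GC, and KO desert density lies between 2.25 and 3.53.

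By chromosome, the largest number of WT desert peaks was on chromosome 1 (64), which carried 57 in KO, and the largest number of KO desert peaks was on chromosome 18 (59), which carried 51 in WT. Chromosome 18 was also where desert peaks took the highest share of a chromosome's list, 27.0% in WT and 27.3% in KO. That share depended on the annotation. Of the chromosome 18 desert peaks, only 17 in WT and 16 in KO lay in the M21 desert, since M21 places a gene over or within 100 kb of the others. Chromosomes 17, 18 and 19 together held 96 WT desert peaks, 49 of them outside the M21 desert, and 100 KO ones, 68 of them outside. On chromosomes 1 to 16 just 4 of 549 WT and 9 of 457 KO desert peaks lay outside it. There the authors' distance matched the M21 distance within 2 bp for 100% of the desert peaks.

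Per Mb of M21 desert, chromosome 18 did not stand out, with 2.40 WT peaks (1.40 to 3.85) and 2.26 KO peaks (1.29 to 3.67). On chromosomes 1 to 16 the WT density ran from 2.29 on chromosome 15 to 4.27 on chromosome 14, and the KO density from 1.69 on chromosome 9 to 3.77 on chromosome 15. WT was denser than KO on 17 of 19 chromosomes, all but 6 and 15. The WT and KO intervals overlapped on every chromosome, which does not show that the densities were alike. The widest gaps were on chromosome 17, at 4.35 in WT (2.69 to 6.65) against 1.86 in KO (0.853 to 3.54), on chromosome 14, at 4.27 (3.06 to 5.79) against 2.40 (1.52 to 3.59), and on chromosome 3, at 3.84 (2.87 to 5.03) against 2.14 (1.43 to 3.07). Chromosome 15 had 2.29 in WT (1.40 to 3.53) against 3.77 in KO (2.60 to 5.30).

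**Figure D3:**
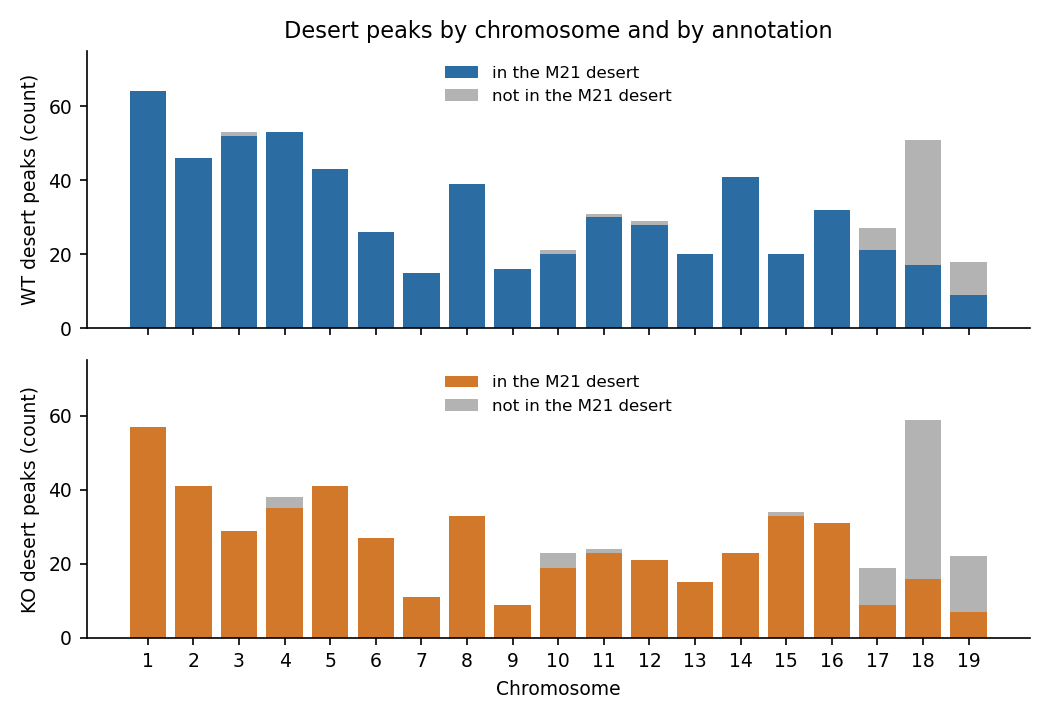
Number of desert peaks (vertical axis) on chromosomes 1 to 19 (horizontal axis) in the WT (top) and KO (bottom) IP lists, split by whether the peak also lies in the GENCODE M21 desert (colour) or not (grey). The grey parts are almost all on chromosomes 17 to 19, with 49 peaks in WT and 68 in KO.

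Most desert peaks were shallow, as were most autosomal peaks of both lists. Pileup, the number of overlapping fragments at the summit, is the authors' value, as are fold enrichment over input and q. In WT, 108 desert peaks had a pileup of 5, 225 of 6, 194 of 7, 72 of 8 and 30 of 9. In KO the counts were 67, 204, 155, 75 and 30. A pileup of 8 or less covered 92.9% of the WT (90.6 to 94.7) and 89.9% of the KO desert peaks (87.1 to 92.3). Over all autosomal peaks it covered 90.6% in WT and 88.3% in KO. WT desert peaks had a median pileup of 6 (6 to 7) and KO ones of 7 (6 to 7), and the median fold enrichment was 3.50 in WT and 3.42 in KO, the same medians as over all autosomal peaks of each list. The median fold stayed at these values in every distance class except WT beyond 500 kb (3.46). The implied local background, defined below, was at or near the lowest of its list for 47.8% of WT and 51.2% of KO desert peaks. That lowest value was 1.0 fragments in WT and 1.049 in KO. A pileup of 6 over it gives a fold of 3.50 in WT and 3.42 in KO, the same as the medians. Equal or different medians therefore say little about enrichment.

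Tall peaks were fewer in the deserts than elsewhere in the WT list. A pileup of 10 or more was reached by 16 of 645 WT desert peaks (2.48%, 1.42 to 4.00), where 5.09% of all WT autosomal peaks reached it and 5.90% (4.98 to 6.93) of the intergenic ones within 100 kb. In KO it was reached by 26 of 557 desert peaks (4.67%, 3.07 to 6.77), against a background of 6.82% and against 7.32% (6.31 to 8.44) of intergenic peaks within 100 kb, with overlapping intervals. A q below 0.05 was reached by 21 WT desert peaks (3.26%, 2.03 to 4.93), against 5.16% of all WT autosomal peaks, and by 30 KO desert peaks (5.39%, 3.66 to 7.60), against 5.73%. The highest pileup in a desert was 20 in WT and 21 in KO.

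**Figure D4:**
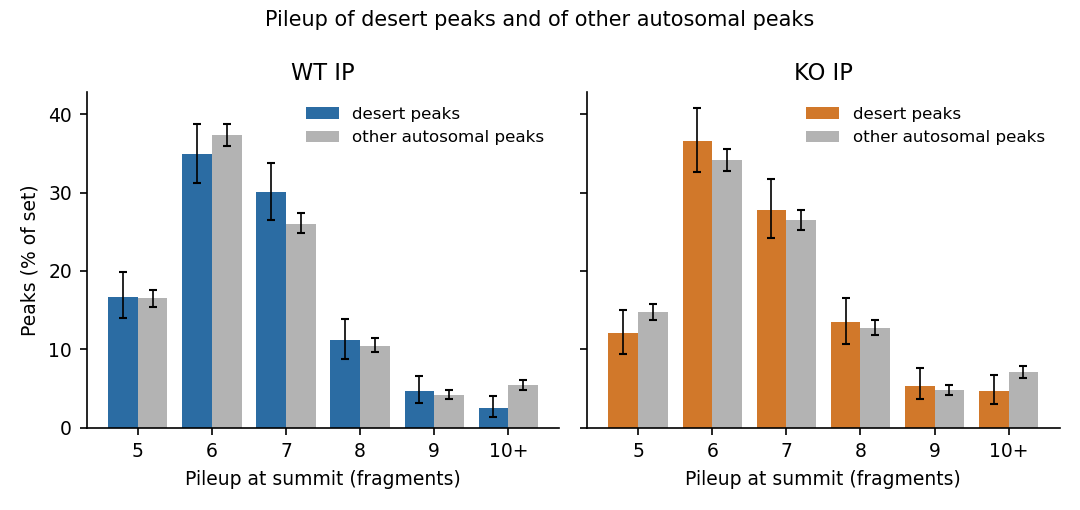
Share of peaks in percent (vertical axis) by pileup at the summit in fragments (horizontal axis) for desert peaks (colour) and all other autosomal peaks (grey) in the WT (left) and KO (right) IP lists, with exact 95% Clopper-Pearson intervals as bars. Pileups of 6 and 7 lead in every set, and pileups of 10 or more are 2.48% of WT desert peaks against 5.45% of other WT peaks.

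The tallest desert peaks, 10 in KO and just 3 in WT, were mostly repeat-masked. In KO all 10 desert peaks with a pileup of 12 or more were repeat-masked from end to end, with pileups of 12 to 21 and an implied local background of 1.58 to 5.04 fragments. The tallest of them, with 21 fragments and a fold of 3.64, lay between Dpp10 and Actr3 on chromosome 1. In WT 2 of the 3 peaks of that height were fully masked. The exception, with 20 fragments, a fold of 4.16 and 13.9% masked bases, lay between Gpm6a and Adam29 on chromosome 8 over a local background of 4.05 fragments. Of the desert peaks with q below 0.05, 4 of 21 were fully masked in WT and 18 of 30 in KO. The same shares among tall or significant peaks outside the deserts were not measured, so these counts are not shown to be particular to deserts. Repeats were not more common among desert peaks than in desert sequence: 24.7% of WT desert peaks (21.4 to 28.2) and 30.2% of KO ones (26.4 to 34.2) were masked over 50% or more of their length, against 33.8% of desert windows.

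By fold enrichment, the leading WT desert peak was at chr10:74438600-74438864 (pileup 15, fold 6.36, −log10 q 5.88), fully masked. The authors placed its nearest gene start 381989 bp away, but in M21 it lies inside Pcdh15, a protocadherin gene of inner ear hair cells. The next, at chr2:46949609-46949888 between Zeb2, a transcriptional repressor with zinc fingers, and Acvr2a, an activin receptor, had a pileup of 10, a fold of 5.50 and a −log10 q of 2.91, with 13.9% masked bases. A neighbour at chr2:46995057-46995311 had a pileup of 9 and a fold of 4.999. The other leading WT peaks also had pileups of 9 or 10 and folds of 4.999 to 5.077, and flanked Dcc, a netrin receptor, Pcdh17, Slitrk1, Slc27a6, Plpp3 and Kctd8.

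The leading KO desert peaks were at chr6:104066440-104066714 between the neural adhesion genes Chl1 and Cntn6 (pileup 11, fold 5.81) and at chr1:99187640-99187963 between Slco6d1 and Cntnap5b (pileup 14, fold 5.81, −log10 q 4.61). Both were fully masked. The third lay between Gadd45g and Diras2 (pileup 10, fold 5.24) and was fully masked too. The highest fold was 6.36 in WT and 5.81 in KO over all desert peaks, and 5.50 in WT and 5.81 in KO within the M21 desert, so the order depended on the annotation.

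The WT and KO lists almost never met, in the deserts as over all autosomes. Only 5 WT desert peaks overlapped a KO peak (0.775%, 0.252 to 1.80), where 1.04% of all WT autosomal peaks did so, and 5 KO desert peaks overlapped a WT peak (0.898%, 0.292 to 2.08), against 1.07%. They were the same 5 places, and each was a desert peak in both lists. Between Immp2l, a mitochondrial peptidase gene, and Dnajb9, a chaperone gene of the endoplasmic reticulum, the pileup was 9 in WT and 9 in KO, with folds of 3.72 and 4.88. Between Mterf1b and Fzd1, a Wnt receptor gene, it was 5 in WT and 7 in KO, with folds of 3.00 and 3.90. Between Hs3st1 and Rab28 it was 6 in WT and 7 in KO, with folds of 3.50 and 3.85. These 3 places were fully repeat-masked. Between Ankrd7 and Kcnd2, a potassium channel gene, the pileup was 7 in WT and 5 in KO, with folds of 4.00 and 2.86. Between Tenm3, a teneurin of neuronal contacts, and Aga, a lysosomal enzyme gene, it was 6 in WT and 5 in KO, with folds of 3.10 and 2.93. The summits of the 5 pairs were 9 to 212 bp apart. WT was the higher by fold in 2 of the 5 pairs, but the values come from separately called lists and have no replicate.

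ETS cores were no more common around the summits than in the deserts themselves, and slightly less so in WT. The GGAA core, on either strand, stood no more than 100 bp from the summit in 84.8% of WT desert peaks (81.8 to 87.5) and 89.8% of KO ones (86.9 to 92.2), and in 87.6% of the 853843 desert windows of the same length. The ELF-type site CCGGAAGT was found in 1 of 645 WT desert peaks (0.155%, 0.00393 to 0.861) and in 0 of 557 KO ones, which allows a share of up to 0.539% by the rule of 3 counts (exact upper limit 0.66%), and in 0.0595% of desert windows. The WT peak is the Cdh8 to Cdh11 sequence printed above, with a pileup of 8, a fold of 4.32 and a −log10 q of 1.09, at 372401 bp from the nearest gene start.

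Sites of the macrophage enhancer factors were also near the level of desert sequence. The PU.1-type site GAGGAAGT, which contains the GGAA core, was found in 3 WT desert peaks (0.465%, 0.096 to 1.35) and 9 KO ones (1.62%, 0.741 to 3.05), and in 1.09% of desert windows and 1.72% (1.37 to 2.14) of other WT autosomal peaks. The WT desert share was below that of the other WT peaks, while its interval held the desert window value. The AP-1 site TGANTCA, which reads the same on both strands, was found in 32 WT desert peaks (4.96%, 3.42 to 6.93) and 40 KO ones (7.18%, 5.18 to 9.65), and in 6.09% of desert windows.

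The deserts were next named by the protein-coding gene on either side. WT desert peaks fell in 289 intervals between neighbouring coding genes and KO ones in 286, and 173 intervals held peaks of both lists. Most intervals held few: 149 had 1 WT desert peak and 152 had 1 KO desert peak. WT was more often crowded, with 34 intervals of 5 or more desert peaks (213 peaks) against 10 in KO (71 peaks). Of the 101 intervals with at least 0.5 Mb of M21 desert, 96 held a WT desert peak, 89 a KO one and 84 both.

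The interval between Cdh8 and Cdh11, cadherins that join like cells in brain and mesenchyme, held the most WT desert peaks, 15, and 3 KO ones. Per Mb of its desert that was 9.50 in WT (5.32 to 15.7) and 1.90 in KO (0.392 to 5.55). Between Ptprd, a receptor tyrosine phosphatase of synapses, and Tyrp1, a melanin synthesis gene, there were 9 in WT and 1 in KO, or 6.66 (3.05 to 12.6) against 0.740 per Mb (0.0187 to 4.12). Between Zeb2 and Acvr2a there were 9 in WT and 4 in KO. Between Epha7, an ephrin receptor, and Map3k7, the kinase TAK1 that relays TLR4 signals to NF-kB, there were 8 in WT and 3 in KO. The order turned between Tlr4 and Brinp1, with 2 in WT and 8 in KO, or 2.76 (0.334 to 9.95) against 11.0 per Mb (4.76 to 21.7). The interval between Celf4 and Pik3c3 on chromosome 18 held the most KO desert peaks, 13, and 8 WT ones, of which 6 KO and 5 WT ones lay in the M21 desert. No interval had WT and KO densities whose counting intervals were apart, the Cdh8 to Cdh11 one included, and these were picked as the extremes of 826 intervals with desert sequence.

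**Figure D5:**
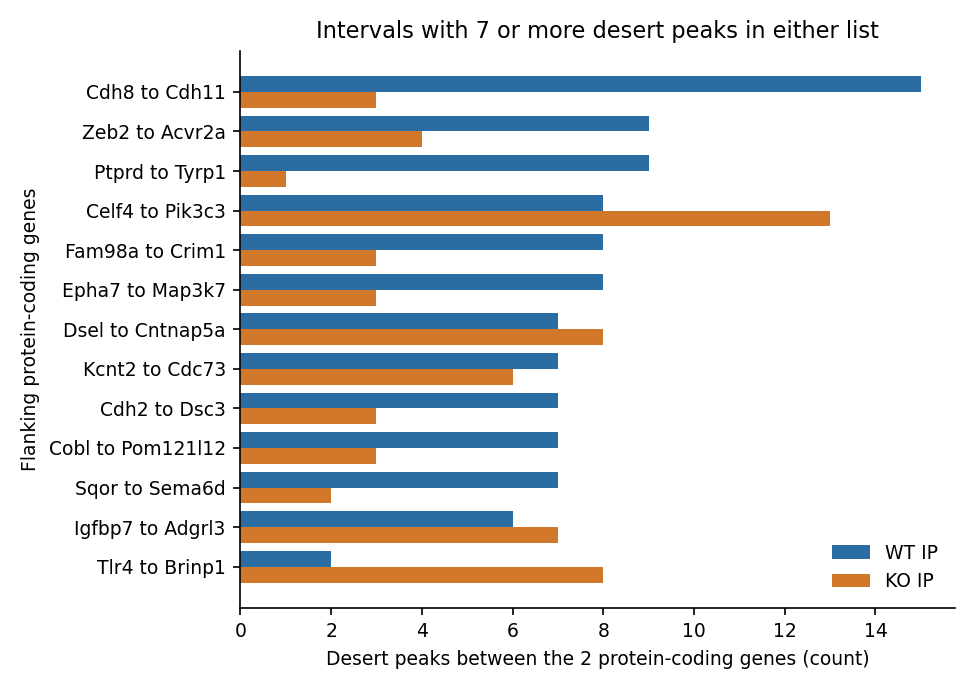
Number of desert peaks (horizontal axis) between the 2 protein-coding genes named on the vertical axis, in the WT and KO IP lists, for the 13 intervals with 7 or more in either list. WT counts run from 2 to 15 and KO counts from 1 to 13, with the longest WT bar at Cdh8 to Cdh11 and the longest KO bar at Celf4 to Pik3c3.

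Counted by flanking gene, Cdh8 led in WT with 20 desert peaks (7 in KO), followed by Cdh11 with 16 (6), Pcdh17 with 12 (6), Pom121l12 with 12 (6), Epha7 with 11 (4), Pik3c3 with 10 (14), the latrophilin gene Adgrl2 with 10 (3), Ptprd with 10 (2), and Acvr2a and Zeb2 with 9 each (4 each). In KO, Pik3c3, a lipid kinase of autophagy, led with 14, followed by Celf4 with 13 (8 in WT), Dsel with 9 (8), Sorcs1 with 9 (5), Adgrl3 with 8 (7), Cntnap5a with 8 (7), Brinp1 with 8 (4), Tlr4 with 8 (2), Cdh8 with 7 (20) and Csmd3 with 7 (6). Of the 13 KO desert peaks between Celf4 and Pik3c3, 6 lay in the M21 desert. Between Sorcs3 and Sorcs1, 0 of 6 KO ones did. All 8 did between Dsel and Cntnap5a, and all 8 between Tlr4 and Brinp1. The order of the KO ranking thus depended on the annotation.

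By gene list, desert peaks lay beside neural and adhesion genes about as often as desert sequence does. Synaptic and neuronal adhesion genes flanked 115 WT desert peaks (17.8%, 14.95 to 21.01) and 95 KO ones (17.1%, 14.0 to 20.4), and 17.6% of desert sequence. Epha7, Adgrl2, Lingo2 (8 in WT) and Adgrl3 led in WT, and Adgrl3, Cntnap5a, Csmd3 and Tenm2 (6 in KO) in KO. Cadherins and protocadherins flanked 73 WT ones (11.3%, 8.98 to 14.0) and 47 KO ones (8.44%, 6.27 to 11.1), and 9.59% of desert sequence. Developmental transcription factors flanked 34 in WT (5.27%) and 27 in KO (4.85%), and 6.82% of the sequence, led by Zeb2 and Nr2f1 in WT and by Meis2 and Zeb2 in KO. Ion channels and neurotransmitter receptors flanked 30 in WT (4.65%) and 23 in KO (4.13%), and 4.79% of the sequence, led by Kcnd2 and Grin3a in WT and by Kcnj3 and Gabrg1 in KO. The interval of each share held the share of sequence for these 4 lists in both genotypes.

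Of the annotated genes on the LPS, inflammatory, interferon, macrophage and ETS lists, 13 of 168 border desert sequence. The macrophage lineage list alone has 7 of 34. The rate over all genes was not measured. LPS, TLR4 and NF-kB signalling genes flanked 10 WT desert peaks (1.55%, 0.746 to 2.83), 8 at Map3k7 and 2 at Tlr4, and 11 KO ones (1.97%, 0.990 to 3.51), 8 at Tlr4 and 3 at Map3k7, against 1.20% of desert sequence. Only 3 of the 37 genes of that list border any desert sequence. Macrophage lineage genes flanked 2 WT desert peaks (0.310%), both at the scavenger receptor gene Msr1, and 1 KO one (0.180%) at the transcription factor gene Maf, against 0.398% of desert sequence. Interferon genes flanked 1 in each list, at Cmpk2, and 0.0865% of the sequence. ETS family genes flanked 1 WT one, at Ets1, and 0.0343% of the sequence. T cell markers flanked 3 WT ones (0.465%), all at Gata3, and 0.342% of the sequence. For each of these lists the interval of the share held the share of sequence. Here too the shares count all desert peaks. Among those in the M21 desert, the LPS list flanked 1.69% in WT and 2.29% in KO. Inflammatory effectors, B cell and stromal markers, and olfactory and vomeronasal receptors flanked none in either list. Those lists flank 0.0187%, 0.0172%, 0.0423%, 0.202% and 0.0% of desert sequence, so a count of 0 says little about the peaks.

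The authors' nearest gene, which may be of any class, was a pseudogene for 40.0% of WT and 37.7% of KO desert peaks and a small RNA gene for 24.2% and 22.4%. Among intergenic peaks within 100 kb a pseudogene was nearest for 39.5% in WT and 39.6% in KO. The pseudogene share was therefore not particular to deserts. A small RNA gene was nearest for 17% of these nearer peaks in WT and 14% in KO. The nearest gene was protein-coding for 11.6% of WT (9.26 to 14.4) and 17.1% of KO desert peaks (14.0 to 20.4), against 22.1% and 22.8% of intergenic peaks within 100 kb.

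A larger share of WT than of KO desert peaks lay in clusters. Linking neighbours within 100 kb and keeping groups of 3 or more gave 31 WT clusters with 105 desert peaks (16.3%, 13.5 to 19.4) and 17 KO clusters with 55 (9.87%, 7.53 to 12.7). Peaks enter clusters in groups, so the intervals of clustered shares, which treat peaks as independent, are likely too narrow. Among the more significant 50% of each list the shares were 8.58% in WT and 7.14% in KO, so most of the gap was gone. A thinner list also has fewer clusters by construction. On chromosomes 1 to 16 the shares were 18.6% in WT and 8.75% in KO. In the M21 desert alone they were 17.2% and 7.71%, and both of these limits were chosen after seeing the data. Intergenic peaks within 100 kb of a gene start were in such clusters in 10.3% (9.07 to 11.6) of WT and 9.87% (8.70 to 11.1) of KO cases. The WT list also has more desert peaks, which by itself brings neighbours closer, and its part in the clustering was not tested. The median distance to the nearest desert peak of the same list was 240 kb in WT (157 to 279) and 287 kb in KO (246 to 355). From a WT desert peak the nearest KO one was a median of 283 kb away (235 to 324), and 32.6% had a KO one within 100 kb (29.0 to 36.3) against 39.5% with another WT one (35.7 to 43.4). From a KO desert peak the order was the other way. The nearest WT one was a median of 235 kb away (185 to 285). Of KO desert peaks, 36.6% had a WT one within 100 kb (32.6 to 40.8) against 33.6% with another KO one (29.7 to 37.7). A KO desert peak lay inside 10 of the 31 WT clusters, and a WT one inside 4 of the 17 KO clusters.

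The largest WT cluster had 8 peaks over 319.4 kb between Cdh8 and Cdh11. In order along the chromosome their pileups were 6, 8, 7, 6, 5, 5, 6 and 8 and their folds 3.50, 4.47, 3.94, 3.50, 2.94, 3.00, 3.50 and 4.32. None was tall, none reached q below 0.05, and the last of them is the peak with the ELF-type site. A KO desert peak lay inside it as well. The next had 5 peaks over 247.5 kb between Pcdh17 and Diaph3, a formin gene, with pileups of 7, 7, 6, 7 and 9, of which the last passed q below 0.05 (fold 4.90). The cluster of 4 between Zeb2 and Acvr2a, over 156.9 kb, had pileups of 10, 9, 7 and 7 and folds of 5.50, 4.999, 3.78 and 3.87, and it was the strongest of the 5 largest. The other clusters of 4 among those 5 lay between Mterf1b and Fzd1 (136.1 kb, 2 KO desert peaks inside) and beside Pglyrp3 (53.9 kb).

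The largest KO cluster had 6 peaks over 127.3 kb between Tlr4 and Brinp1, a neuronal gene, with no WT desert peak inside. Their pileups were 6, 8, 7, 7, 6 and 6 and their folds 3.42, 3.86, 3.55, 3.90, 3.01 and 3.42. They lay 158 to 285 kb from the nearest gene start, and none reached q below 0.05. A KO cluster of 4 peaks spanned 53.7 kb between Lcorl and Slit2, an axon guidance gene, with folds of 3.42 to 4.32. Clusters of 3 lay between Kif2b and Car10 (13.4 kb), Adra2a and Gpam (43.3 kb) and Tenm3 and Aga (51.2 kb, where a WT peak overlaps a member). The one between Kif2b and Car10 lay within the 118.7 kb span of a WT cluster of 3.

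The desert peaks most remote by the authors' distances had pileups of 5 to 7 in both lists, and most of these distances were far shorter in M21. In WT the farthest was 914189 bp from the authors' nearest gene start, on chromosome 18 between Celf4 and Pik3c3, with a pileup of 6 and a fold of 2.98, and M21 has a gene start 83.6 kb away. The next in the same interval, at 827875 bp by the authors and 108 kb by M21, had a pileup of 6 and a fold of 3.50. Of the 5 farthest in WT, 2 lay outside the M21 desert. The peak between Dsel and Cntnap5a on chromosome 1 was 625457 bp from a gene start in both annotations, with a pileup of 6 and a fold of 3.36. In KO the farthest was again between Celf4 and Pik3c3, at 749146 bp by the authors and 186 kb by M21, with a pileup of 6 and a fold of 3.42. The other 4 of the 5 farthest in KO, a pair between Sorcs3 and Sorcs1 among them, lay outside the M21 desert, 6.17 to 82.2 kb from an M21 gene start.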

How the data were processed

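ELF1 ChIP-seq peak lists of 1 WT and 1 Elf1 KO IP library were analysed, and the input libraries were not analysed here. The sample titles gave the groups. The series' design text says that the authors filtered reads with Trimmomatic 0.36, aligned them to GRCm38 with Bowtie2 and took out duplicates with SAMtools rmdup, and Bowtie2 and SAMtools also stand in the submitters' processing notes. Not given in the sources used here were the peak caller and threshold and the annotation tool and release. Each IP library has a peak list of its own, named for that IP against its input.

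Per the file headers, the deposited pileup is a signal in fragments at the summit, the deposited fold enrichment is a ratio to the control, and the deposited p and q are given as −log10 values. These are the authors' values for each peak and were used within a list. The implied local background is (pileup + 1) / fold − 1. Total reads are not in the lists, so depth is unknown. The lowest −log10 p was 3.00, and peaks of 5 fragments passed.

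Gene desert peaks were taken by the authors' features and distances. Desert sequence, flanking genes and gene classes came from GENCODE M21 on GRCm38, in which 1201 of the 1202 nearest genes were found, and sequence and soft-masked repeats from RefSeq GRCm38.p6. Motifs were sought on both strands within 100 bp of the summit. Overlap means at least 1 bp. Analysis used Python 3.11.15, pandas 2.3.3, numpy 2.4.6 and scipy 1.17.1, and its counting and interval functions were tested on simulated data.

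The desert peaks and the 14 gene lists were chosen with earlier results of these data known. Named for each genotype were the 10 desert peaks highest in fold, the 10 coding genes flanking the most, the 5 largest clusters, the 5 farthest peaks, all shared peaks, all peaks with the ELF-type site and up to 4 genes per list, leaving out most predicted genes. Intervals with 7 or more desert peaks, the tallest peaks, the PU.1-type and AP-1 sites, and the chromosomes singled out by density were added after values were seen. Alternatives covered the distance limit, q, repeats, overlap, clustering, windows and annotation.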

Additional observations from a re-analysis of the deposited data

Results flagged for a closer look

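The sex chromosomes were outside the comparison, which used chromosomes 1 to 19. By the same distance and feature rule the KO list had 34 desert peaks on the X chromosome, of 434 X peaks, where the WT list had 3 of 97. The WT list had 4 desert peaks on the Y chromosome, of 133 Y peaks, where the KO list had 0 of 8. The X peaks had pileups of 5 to 10 in KO and of 6 in WT, and the WT Y peaks had pileups of 5 to 7. The KO list thus had more X peaks and the WT list more Y peaks, while the autosomal lists held 5117 KO and 5288 WT peaks. The labels give no sex of the mice. Whether the WT and KO mice differed in sex was not tested. The WT and KO comparisons above therefore cannot separate genotype from sex.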

How the results depend on the processing

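Of 74 alternative values of the main results, 40 stayed within the counting interval of the reported value and 34 moved beyond it. The share of autosomal peaks was 3.86% in WT and 2.99% in KO with a 200 kb limit, 0.189% and 0.215% with 500 kb, 7.69% in WT among peaks with q below 0.05, and 9.88% in KO on chromosomes 1 to 16. With deserts drawn from protein-coding genes alone, the WT density was 2.93 peaks per Mb and the KO one 2.73, and their counting intervals, apart in the M21 desert, overlapped. The share overlapping the other genotype was 0.0% in WT and 3.33% in KO for desert peaks with q below 0.05. The clustered share in WT and KO was 7.75% and 3.59% with links of 50 kb, 24.7% and 18.1% with 200 kb, 5.12% and 1.80% for 4 or more members, and 8.58% and 7.14% for the more significant 50%. It was higher in WT in each of these, with most of the gap gone in the last. It was also higher in WT on chromosomes 1 to 16 (18.6% against 8.75%) and in the M21 desert alone (17.2% against 7.71%). The WT median fold beyond 500 kb was 3.46. The share with q below 0.1 was 11.5% in WT and 13.8% in KO, and with q below 0.01 0.620% and 1.62%. The share with at least 25% masked bases was 42.5% in WT and 49.9% in KO, and with 75% 19.2% and 24.4%. The GGAA core was present in 60.0% of WT and 66.3% of KO desert peaks within 50 bp, and in 99.7% and 99.1% within 250 bp. By the authors' nearest gene alone, neuronal, adhesion or developmental genes were nearest to 0.0% of WT and 1.08% of KO desert peaks, and immune genes to 0.0% and 0.180%; for single lists 16 of 28 such values moved. Stricter thresholds and wider windows change these shares by construction, and other causes were not tested. Leaving out simple repeats and peaks with an implied background above 50 fragments, the stand-in used for satellite, moved no value. The limits to chromosomes 1 to 16 and to the M21 desert were chosen after seeing the data. No paired analysis was possible because each genotype has 1 IP library. Read depth is unknown, and a threshold reached by 5 fragments limits what a peak shows. The lists cannot tell a missing peak from a shallow library.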
